A study of Mus musculus with 2 samples.

Results

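The genes described here are 40 genes of G2 and mitosis, the last phases of the cell cycle, chosen by name among 32285 genes measured in single cells of mouse 4T1 tumours. All 40 were found in the files, each once. 4T1 is a mouse mammary carcinoma line used as a model of triple-negative breast cancer, and it had been injected into the mammary fat pad. One group, called vehicle here, received normal saline. The other, called beta-elemene, received β-elemene, a plant sesquiterpene, at 30 mg/kg into the abdomen every day, and both were collected after 18 days. Each group was 1 library of single cells, and the labels state neither the mouse strain and age nor how many tumours a library holds. No difference between the groups therefore has a replicate check, and no test between them was made. Intervals given below are 95% intervals that cover counting error only. For counts summed over cells they do not cover the sampling of cells.

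Cells that have copied their DNA enter mitosis when CDK1 binds cyclins A and B, and they leave it when the anaphase-promoting complex, APC/C, marks those cyclins for destruction. Between these steps the spindle is built by kinesins and microtubule-binding proteins, kinetochores join chromosomes to it, and checkpoint kinases hold the cell until all are joined. Most genes of this programme are silent in resting cells and are transcribed together late in the cycle, so their messages are widely used to mark proliferating cells in tumours. Ki-67, the product of Mki67, is the marker scored in breast cancer pathology.

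Shared promoter letters are shown first, because the 40 genes were grouped by function and not by sequence. The element TTTGAA, known as the cell cycle genes homology region, and the CCAAT box are both known from promoters of genes transcribed late in the cycle. RefSeq promoters, from 250 bases before to 50 after a gene's start on build GRCm38.p6, were matched for 35 of the 40 genes. On either strand, TTTGAA was found in 28 of the 35 (80.0%), against 18.1% of 27025 genes with a promoter. CCAAT was found in 27 (77.1%), against 37.9% of all. Both were found in 24 (68.6%), against 7.12% of all; a base could count for both motifs. The promoters of 5 genes are printed as examples of both motifs, chosen after their values were seen: Cdk1, Cdc20 and Ube2c, with ratios of beta-elemene over vehicle above 1 in malignant cells, and Top2a and Mki67, with ratios below 1. Each line gives the 150 bases before the start, with both motifs in capitals as read on this strand, where the opposite strand's motifs read TTCAAA and ATTGG.
Cdk1: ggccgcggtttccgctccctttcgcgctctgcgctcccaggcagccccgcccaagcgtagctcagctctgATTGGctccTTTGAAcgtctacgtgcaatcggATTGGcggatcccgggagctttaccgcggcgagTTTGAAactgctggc
Cdc20: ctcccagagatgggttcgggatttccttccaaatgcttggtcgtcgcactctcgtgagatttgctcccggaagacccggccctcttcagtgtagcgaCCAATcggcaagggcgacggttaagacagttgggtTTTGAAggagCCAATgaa
Ube2c: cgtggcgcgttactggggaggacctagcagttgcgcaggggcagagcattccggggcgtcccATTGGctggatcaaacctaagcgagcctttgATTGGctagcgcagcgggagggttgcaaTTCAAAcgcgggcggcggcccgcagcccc
Top2a: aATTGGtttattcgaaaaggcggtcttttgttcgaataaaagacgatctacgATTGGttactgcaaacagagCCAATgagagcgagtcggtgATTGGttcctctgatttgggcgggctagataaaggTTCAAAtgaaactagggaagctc
Mki67: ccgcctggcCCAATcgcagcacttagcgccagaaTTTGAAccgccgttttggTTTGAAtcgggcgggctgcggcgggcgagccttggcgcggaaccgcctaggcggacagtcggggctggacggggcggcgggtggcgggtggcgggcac
These lie at chr10:69352913-69353062, chr4:118437344-118437493, chr11:99024190-99024339 and chr7:135716380-135716529 on the minus strand and at chr2:164769779-164769928 on the plus strand. Of the 21 promoters of genes with a ratio above 1 in malignant cells, 16 held TTTGAA, 18 CCAAT, 15 both and 2 neither. Of the 14 with a ratio below 1, 12 held TTTGAA, 9 CCAAT, 9 both and 2 neither. Birc5, at a ratio of 1.17, is among those with neither. A match describes the sequence only.

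Depth was counted in unique molecular identifiers (UMIs): 168750895 over 11324 barcodes in vehicle and 157282740 over 11539 in beta-elemene, with medians per barcode of 11878.5 and 9682. After filters, 10421 and 10521 cells were used, and 37 barcodes occurred in both libraries. Clusters were made without the 40 genes and without the other cell-cycle genes described below, and were named from marker genes. The malignant-like class rests on 12 epithelial markers such as Epcam and Krt8, which summed to 4925 CPM (UMIs of a gene per 1000000 UMIs of its class) in vehicle and 5813 CPM in beta-elemene, against 157 and 145 CPM in macrophage-like cells. Normal mammary epithelium expresses such markers too, and the class includes small clusters led by mammary genes, Ptn and Prlr in 69 and 40 cells and the milk gene Csn3 in 43 and 30 cells. Neutrophil markers in the malignant-like class summed to 176 and 314 CPM, and their part in the results was not tested. Clusters without a clear class held 396 cells (3.80%) in vehicle and 312 (2.97%) in beta-elemene. Classes are written below without the suffix "-like".

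To count cells high in these genes at equal depth, each cell was thinned at random to 1000 UMIs. A cell with at least 5 UMIs of the 40 genes was placed in the dividing range. This range is cut from a continuous score and is neither a cell type nor a set phase of the cell cycle. In malignant cells 101 vehicle and 68 beta-elemene cells lay at 5 UMIs, and 118 and 91 lay at 4, just outside. Since the 40 genes chose these cells, their own excess in them is a description only. Their sum was 8665 CPM in the dividing range and 997 CPM in other malignant cells of vehicle, and 9017 and 946 CPM in beta-elemene. The folds of single genes between these cells ran from 4.88 to 20.7 in vehicle and from 5.04 to 24.6 in beta-elemene. The steepest was Plk1, the kinase that drives mitotic entry, at 61.1 against 2.95 CPM in vehicle and 72.5 against 2.95 CPM in beta-elemene.

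Genes outside the 40 give a check that the rule did not use. Another 49 genes of G2 and mitosis, such as Foxm1, Pttg1 and Aspm, were each higher in the dividing range of malignant cells in both libraries, and their sum was 4.80 times that of other cells in vehicle and 5.28 times in beta-elemene. For 35 genes of DNA replication the folds of the sum were 1.57 and 1.75. For 16 G1 cyclins, kinases and E2F factors they were 1.34 and 1.35. For 18 inhibitors of cyclin-dependent kinases and p53 targets they were 0.977 and 0.907. The range thus held the genes its name states far above those of G1, and DNA replication genes lay between. Within malignant cells of the dividing range the median depths were 30929 (vehicle) and 32048.5 UMIs (beta-elemene), against 20481 and 21081 in the other cells, and called doublets among all kept cells of the range were 4.18% and 3.39%, against 3.46% and 3.09% elsewhere.

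The share of malignant cells in the dividing range did not differ between the libraries beyond counting error. It was 16.2% in vehicle (617 of 3807 cells, exact binomial interval 15.05 to 17.4%) and 16.01% in beta-elemene (490 of 3061, 14.7 to 17.4%), a ratio of 0.988 with an interval of 0.886 to 1.10. Without thinning, at 0.5% of a cell's UMIs, the shares were 15.8% and 15.4%. Malignant cells had the highest share among the named classes of at least 100 cells per library. Counting error alone would leave room for a ratio as low as 0.886 or as high as 1.10.

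Among immune and stromal cells the shares were lower. In macrophages 6.79% of vehicle and 6.59% of beta-elemene cells were in the range, a ratio of 0.970 (0.801 to 1.18). T and NK cells had 8.91% (49 of 550) and 7.09% (44 of 621), a ratio of 0.795 (0.538 to 1.18). Fibroblasts had 7.18% and 6.07%, a ratio of 0.847 (0.560 to 1.28), and endothelial cells 8.65% and 7.61%, a ratio of 0.880 (0.442 to 1.75). In monocytes the counts were 5 of 519 cells (0.963%) and 6 of 578 (1.04%), and in dendritic cells 5 of 143 (3.50%) and 3 of 139 (2.16%). Among the 8 classes that had 100 cells or more on both sides, 7 had a ratio below 1, and the interval included 1 in all 8. The smaller pericyte and mast cell classes held 2 of 37 and 4 of 34, and 1 of 22 and 3 of 15.

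Neutrophils are largely post-mitotic once they have left the marrow, and they serve here as a class that should hold few dividing cells. Their share was 1.51% (15 of 992 cells) and 1.14% (18 of 1584), at median depths of 1909 and 1979 UMIs. Hmgb2, a chromatin protein gene that resting leukocytes also express, held 70.4% and 71.6% of the 40 genes' UMIs there. A small cluster of 17 and 18 cells led by Ngp, Camp and Ltf, granule genes of immature neutrophils, held 2 and 3 of them. Without Hmgb2 the neutrophil shares were 0.403% and 0.316%, the malignant shares 12.3% and 12.7%, and the macrophage shares 4.61% and 4.53%. The shares of monocytes were near the neutrophil level, while those of malignant, T and NK, endothelial and fibroblast cells and macrophages were above it.

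**Figure D1:**
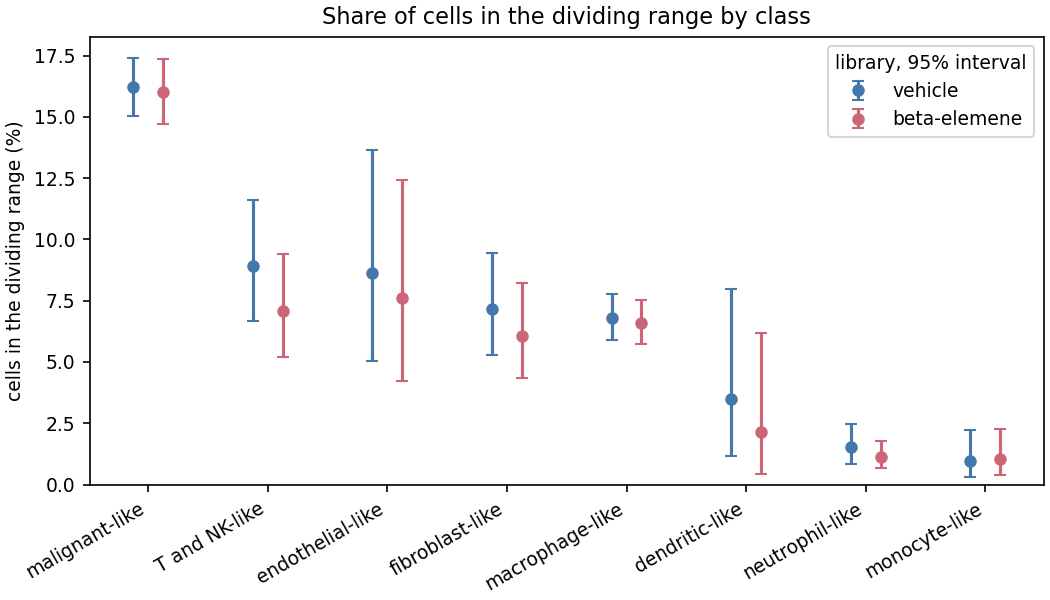
Percent of cells in the dividing range (y axis) for the 8 classes with at least 100 cells per library (x axis). Points are the 2 libraries and bars are 95% exact binomial intervals. The points of malignant-like cells lie at 16.2% and 16.01%, and the bars of the libraries overlap in every class.

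Over all kept cells the share was 10.1% in vehicle (1009 of 10020) and 8.76% in beta-elemene (883 of 10081), a ratio of 0.870 (0.798 to 0.948). This interval lies below 1 although no class alone does so. With the classes of beta-elemene weighted as in vehicle the beta-elemene share was 9.87%. Malignant cells numbered 3851 in vehicle and 3127 in beta-elemene, and neutrophils, with their low share, 1122 and 1775. Of the cells in the dividing range 61.1% were malignant in vehicle and 55.5% in beta-elemene, and macrophages followed with 19.1% and 22.1%.

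Within the malignant class the range was concentrated in 1 cluster, led by replication-dependent histone genes such as Hist1h2ae and Hist1h1b, where 75.0% of 508 vehicle and 76.3% of 346 beta-elemene cells were in it. A cluster led by Pttg1 and Cdc20, which is 1 of the 40 genes but was not used to make clusters, had 15.4% (75 of 486) and 19.5% (65 of 333). One led by Has2 and Csf3, which held 1057 vehicle but 508 beta-elemene cells, had 8.14% and 10.4%. The cluster led by Lcn2 and Tslp, the one with most malignant cells in both libraries, had 3.21% and 4.21%. A cluster of low depth led by Rab25 and Rps26 had 12.5% and 14.3%. Its cells in the range had median depths of 1821 (vehicle) and 2665 UMIs (beta-elemene), against 5566 and 5435 in its other cells. Their median mitochondrial shares were 0.742% and 0.338%, against 4.15% and 3.54%, and what these cells are was not tested. In these 5 clusters the share was higher in beta-elemene each time, with an interval of each ratio that included 1. The small mammary clusters gave both directions, with 2 of 68 and 2 of 39 cells (2.94% and 5.13%) in that led by Ptn and 3 of 42 and 1 of 30 (7.14% and 3.33%) in that led by Wfdc18 and Csn3. At the cluster make-up of vehicle the beta-elemene share was 18.0%, against 16.01% as measured. These weights include the histone-led cluster, whose size is itself largely a count of cells in the range. The 18.0% is therefore not a correction for a make-up independent of division.

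In macrophages a histone-led cluster likewise held most of the range, with 79.3% of 140 vehicle and 75.5% of 147 beta-elemene cells. The other macrophage clusters lay between 1.55% and 9.86% in vehicle and between 0.325% and 11.1% in beta-elemene. At the vehicle make-up the beta-elemene share was 6.05%. Here too the weights include the histone-led cluster, so the 6.05% is not independent of the range. An unnamed cluster of 69 and 108 cells, led by histone genes with a median of 2526 UMIs, had 67.9% and 64.8% in the range. Mitochondrial UMIs were 0.144% and 0.194% of its dividing cells at the median, against 3.81% and 3.88% of dividing malignant cells.

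**Figure D2:**
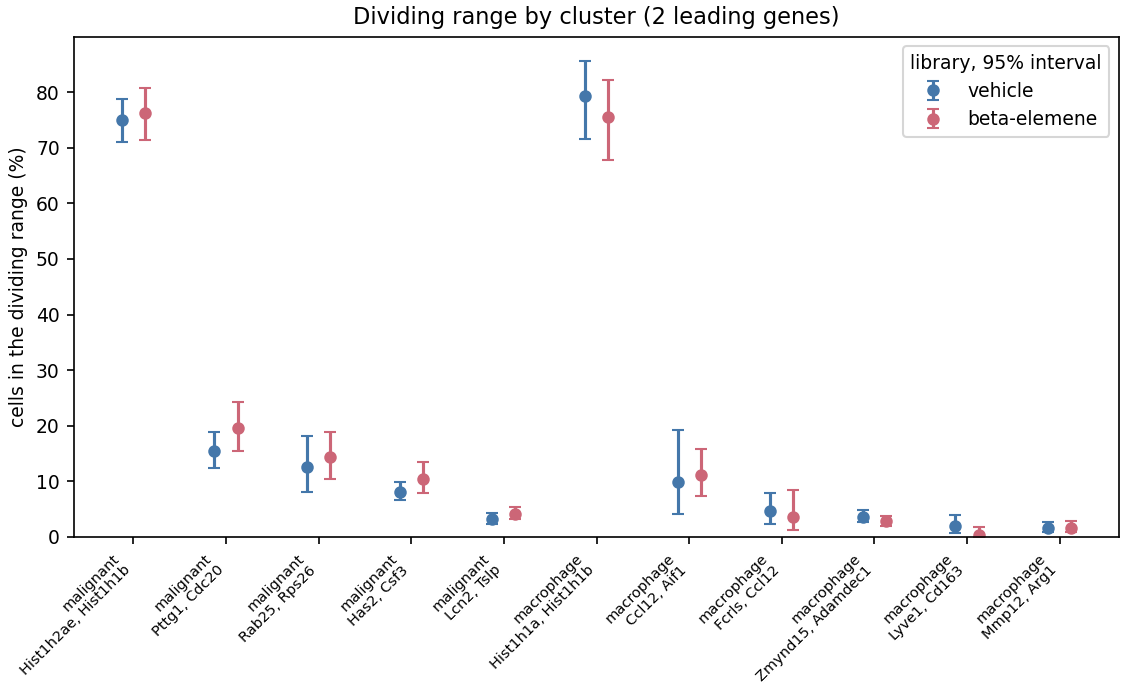
Percent of cells in the dividing range (y axis) in malignant-like and macrophage-like clusters with at least 50 thinned cells per library (x axis, each named by its class and 2 leading genes). Points are the 2 libraries and bars 95% exact binomial intervals. The histone-led clusters lie between 75.0% and 79.3% and all other clusters lie under 20%.

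How many UMIs of the 40 genes a malignant cell held was also much alike. Of 1000 UMIs, none came from the 40 genes in 49.8% of vehicle and 50.6% of beta-elemene cells, and 1 to 4 did in 34.0% and 33.4%. At least 10 did in 6.09% and 6.99%, and the highest cell had 26 and 29. The share with at least 3 was 23.2% and 22.0%, and that with at least 8 was 9.32% and 9.83%, so the vehicle library was ahead at 3 and 5 UMIs and the beta-elemene library at 8 and 10.

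**Figure D3:**
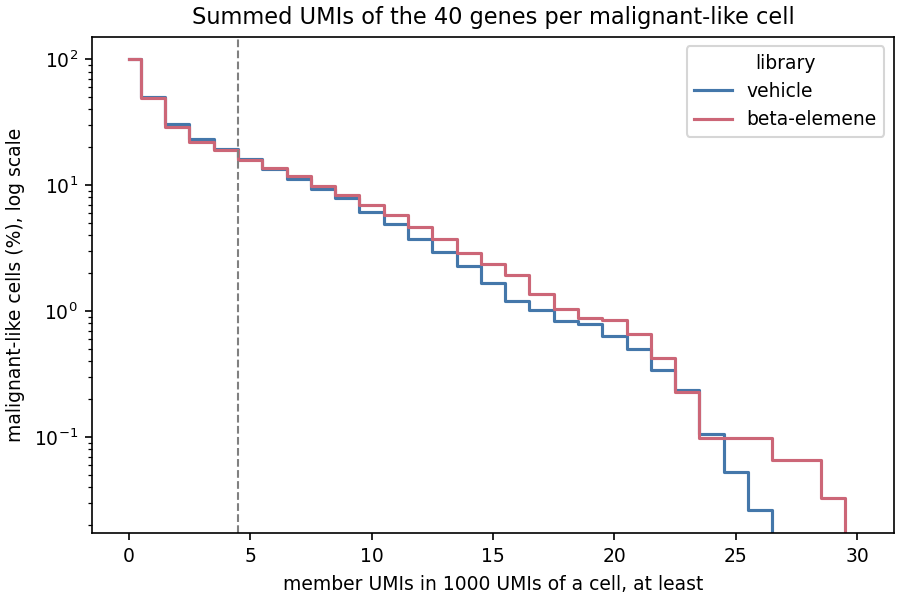
Percent of malignant-like cells (y axis, log scale) with at least the number of UMIs of the 40 genes on the x axis, after thinning each cell to 1000 UMIs. Lines are the 2 libraries and the dashed line marks the lower end of the dividing range, where the lines stand at 16.2% and 16.01%.

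At the level of single genes in malignant cells, all 40 were measured, that is, had at least 50 UMIs in both libraries together, and none differed by 1.5-fold. Among all 15209 genes measured in these cells, 1.58% were at least 1.5-fold higher in beta-elemene with an interval that excluded 1, and 6.69% were lower by that rule. The 40 genes summed to 2650 CPM in vehicle and 2620 CPM in beta-elemene, a ratio of 0.989 (0.983 to 0.995), which came out slightly above 1 under the median scaling, with the mean over cells and without Hmgb2. Ratios of single genes ran from 0.885 for Top2a to 1.247 for Cdc20, with 24 above 1 and 16 below. Their median was 0.07 on the log2 scale, against -0.02 for all genes. The interval lay wholly above 1 for 16 of the 40, against 23.3% of all genes, and wholly below 1 for 9, against 28.8%. In 12 alternative calculations 29 of the 40 genes kept their side of 1, and Anln, Bub1, Cenpf, Ckap2, Ckap2l, Kif11, Kif20a, Ndc80, Nusap1, Racgap1 and Ttk crossed it in at least 1. In sums over many cells such as these, fewer cells of a kind and less RNA per cell cannot be told apart.

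CDK1 and its cyclins summed to 173 CPM in vehicle and 194 CPM in beta-elemene, a ratio of 1.12 (1.10 to 1.15). Cdk1, the kinase itself, stood at 75.2 CPM in vehicle and 88.9 CPM in beta-elemene, a ratio of 1.18 (1.14 to 1.22). Its partners were closer to 1. Ccnb1, which encodes cyclin B1, had 21.3 and 22.5 CPM (ratio 1.06), and Ccnb2, for cyclin B2, 47.6 and 52.0 CPM (1.09). Ccna2, for cyclin A2, which acts from S phase into early mitosis, had 28.8 and 30.9 CPM (1.07).

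The genes of APC/C activation and mitotic entry were the group with the highest ratio, at 132 and 156 CPM, a ratio of 1.18 (1.15 to 1.21). Cdc20, the activator of the APC/C at the onset of anaphase, had 33.6 CPM in vehicle and 41.8 CPM in beta-elemene, a ratio of 1.247 (1.19 to 1.31). Ube2c, the ubiquitin-conjugating enzyme that works with the APC/C, had 83.1 and 94.9 CPM, a ratio of 1.14 (1.11 to 1.18). Cdca3, known as trigger of mitotic entry, had 15.3 and 18.8 CPM, a ratio of 1.23 (1.14 to 1.32). All 3 kept their side of 1 in each of 12 alternative calculations.

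In the chromosomal passenger complex, which corrects faulty attachments and later acts at the midzone, Birc5 (survivin) had 106 and 125 CPM, a ratio of 1.17 (1.14 to 1.21). Its partner Cdca8 (borealin) had 44.4 and 48.8 CPM (1.10). Aurkb, the kinase of the same complex, had 14.6 and 15.2 CPM, with an interval that included 1. The mitotic kinases and checkpoint genes, Aurkb among them, summed to a ratio of 1.08 (1.05 to 1.12).

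Of these kinases, Plk1 had 15.5 and 17.4 CPM (1.12) and Aurka, which matures the centrosomes, 11.8 and 12.6 CPM (1.07). The checkpoint kinase Bub1 had 15.6 and 16.2 CPM (1.04), and Bub1b, which encodes BubR1 of the checkpoint complex, 15.2 and 16.5 CPM (1.08). Ttk, the kinase Mps1 that starts checkpoint signalling, had 9.37 and 10.95 CPM, a ratio of 1.17 (1.06 to 1.29), and came out below 1 in 1 of the 12 alternative calculations. All 6 genes of the group were above 1, 3 of them with an interval that excluded it.

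Centromere and kinetochore genes were divided. Cenpa, the histone variant that marks the centromere, had 79.5 and 90.8 CPM, a ratio of 1.14 (1.11 to 1.18), and Cenpe, a kinetochore motor, 69.6 and 73.3 CPM (1.05). Cenpf, a large kinetochore protein, had 119.7 and 119.4 CPM (0.997). The NDC80 complex, which grips microtubules, gave opposite sides for its members, with Nuf2 at 7.81 and 8.60 CPM (1.10) and Ndc80 at 20.6 and 19.5 CPM (0.944), both with intervals that included 1.

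The 6 kinesins summed to a ratio of 0.982 (0.957 to 1.01). Kif4, a chromosome-bound motor that also works with Prc1 at the midzone, had 18.6 and 16.5 CPM, a ratio of 0.887 (0.825 to 0.954). Kif11, which pushes the spindle poles apart, had 31.8 and 31.4 CPM (0.985). Kif20a had 11.7 and 10.99 CPM (0.937) and Kif20b 31.3 and 29.8 CPM (0.953), both motors of late mitosis. Kif23, the motor of the centralspindlin complex, had 34.3 and 36.1 CPM (1.05), and Kif2c, which depolymerises microtubules at centromeres, 10.9 and 11.3 CPM (1.05).

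Spindle assembly genes summed to 1.01 (0.988 to 1.03). Tpx2, which activates Aurora A on the spindle, had 43.0 and 45.3 CPM (1.06), and Hmmr, a spindle-pole adaptor, 42.8 and 46.3 CPM (1.08). Below 1 were Nusap1, a microtubule bundler, at 37.4 and 35.0 CPM (0.935), and Tacc3, a crosslinker of spindle fibres, at 30.1 and 28.1 CPM (0.933). The spindle-associated genes Ckap2 and Ckap2l had 24.5 and 23.6 CPM (0.964) and 20.3 and 21.6 CPM (1.06).

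For cytokinesis, the final split, the sum gave 0.964 (0.946 to 0.982). Ect2, the exchange factor that activates RhoA at the furrow, had 53.4 and 48.8 CPM, a ratio of 0.913 (0.875 to 0.953). Prc1, which bundles the midzone, had 91.6 and 87.2 CPM (0.952). Anln, a scaffold of the contractile ring, had 83.2 and 82.8 CPM (0.995), and Racgap1, the partner of Kif23, 27.2 and 27.4 CPM (1.01).

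Lowest was the group of chromosome structure genes, at 1222 and 1114 CPM, a ratio of 0.911 (0.903 to 0.919). Top2a, the topoisomerase that untangles sister DNA, had 267 CPM in vehicle and 237 CPM in beta-elemene, a ratio of 0.885 (0.869 to 0.902). Mki67 had 107 and 94.98 CPM, a ratio of 0.887 (0.861 to 0.914). Hmgb2 had 646 and 588 CPM (0.911, 0.900 to 0.922), and Smc4, a core subunit of condensin, 202 and 194 CPM (0.959). Hmgb2 alone held 24.4% and 22.4% of all UMIs of the 40 genes, and without it the log2 ratio of their sum moved from -0.016 to 0.020.

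**Figure D4:**
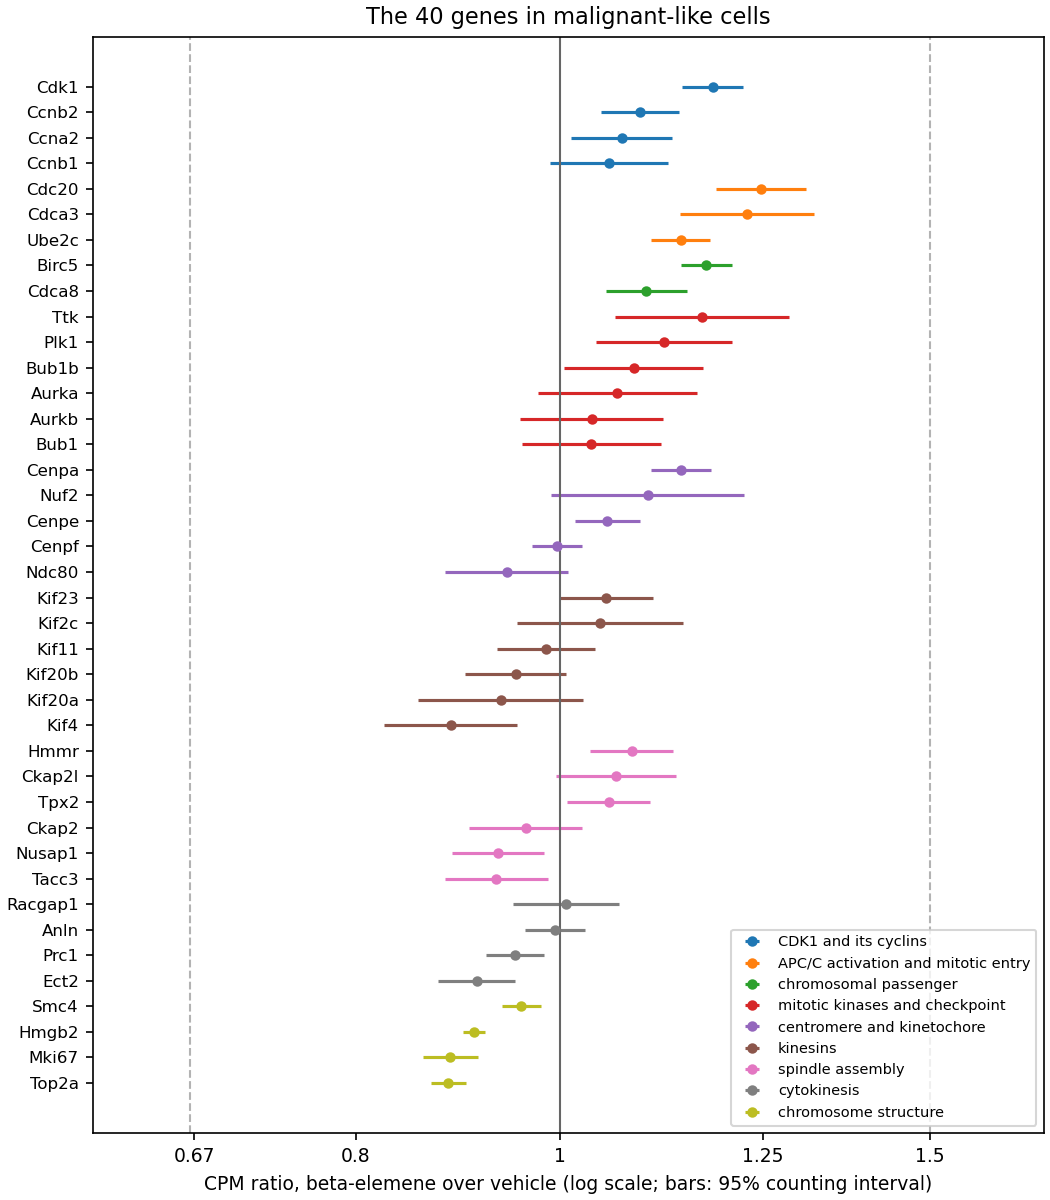
CPM ratio of beta-elemene over vehicle (x axis, log scale) for each of the 40 genes (y axis) in malignant-like cells, coloured by role, with 95% counting intervals as bars. The solid line marks 1 and the dashed lines 1.5-fold either way. All 40 points lie inside the dashed lines, with Cdc20 at 1.247 and Top2a at 0.885 as the ends.

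Malignant cells were then split by the dividing range. In dividing malignant cells the sum of the 40 genes was 1.04 times vehicle (1.03 to 1.05), with 29 ratios above 1 and 11 below. In the other malignant cells it was 0.949 times (0.939 to 0.959), with 13 above and 27 below. Among all measured genes 47.3% lay below 1 in dividing cells and 54.7% in the others. No gene differed by 1.5-fold in either set, where 2.18% and 3.94% of all genes were higher and lower by that rule in dividing cells, and 1.4% and 5.91% in the others. Cdc20 in dividing cells stood at 119 and 159 CPM (1.34, 1.26 to 1.41). Top2a there stood at 935 and 858 CPM (0.918, 0.898 to 0.938). In the other malignant cells the ends were Ckap2 at 9.78 and 6.91 CPM (0.706) and Cdca3 at 5.63 and 6.91 CPM (1.23). The share of cells in the range was set by the same genes, so these levels are not independent of it.

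Other cell-cycle lists in malignant cells had sum ratios from 0.962 to 1.06, with 1 called gene in each of 2 lists. Of 49 further G2 and mitosis genes, 1 was higher by 1.5-fold and none lower, and their sum was 1043 and 1109 CPM, a ratio of 1.06 (1.05 to 1.07). That gene was Psrc1, a spindle protein and p53 target, at 1.22 and 1.93 CPM (1.59, 1.24 to 2.05). The 35 DNA replication genes gave no call and a sum ratio of 1.01, with Dut, the dUTPase, at 185 and 211 CPM (1.14) and the helicase Hells at 96.7 and 78.2 CPM (0.809). The 16 G1 cyclins, kinases and E2F genes gave none and 0.990, with Ccnd1, for cyclin D1, at 648 and 638 CPM (0.985) and Cdk4, its kinase, at 178 and 191 CPM (1.08).

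Among 15 measured kinase inhibitors and p53 targets 1 was higher and none lower. Gadd45a, a stress-induced gene whose product can inhibit CDK1, had 95.1 CPM in vehicle and 153 CPM in beta-elemene, a ratio of 1.61 (1.57 to 1.66). It was lower in dividing than in other malignant cells, at 45.3 against 109 CPM in vehicle and 67.9 against 175 CPM in beta-elemene. The Gadd45a sums pool malignant clusters whose cell numbers differed between the libraries, and the part of this in the ratio was not tested. Cdkn1a, the p21 inhibitor, named after its value was seen, had 39.4 and 29.7 CPM (0.753, 0.715 to 0.794), and Trp53 itself 31.1 and 30.3 CPM. The 16 condensin and cohesin genes gave no call and 0.962, with the cohesin subunits Stag1 at 0.815 and Smc3 at 1.01. The 17 APC/C genes gave none and 1.05, with the E2 enzyme Ube2s and the subunit Anapc5 at 1.14 and 1.08.

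In macrophages all 40 genes were measured and none differed by 1.5-fold, where 1.01% of all genes were higher and 2.63% lower. They summed to 1373 and 1299 CPM, a ratio of 0.946 (0.934 to 0.958), with 14 ratios above 1 and 26 below. Among all genes measured in macrophages 54.9% lay below 1. Chromosome structure genes were again low, at 0.906 (0.890 to 0.922), with Mki67 at 113 and 96.8 CPM (0.857) and Top2a at 109 and 94.96 CPM (0.872). Spindle assembly genes were lower still, at 0.879 (0.841 to 0.919), against 1.01 in malignant cells. CDK1 and its cyclins stood at 0.998 (0.946 to 1.05), against 1.12 in malignant cells. The 2 passenger genes Birc5 and Cdca8 were again high, at 1.12 (1.07 to 1.18), with Birc5 at 49.0 and 55.3 CPM (1.13). Aurkb, the kinase of the same complex, which was counted with the mitotic kinases, was below 1 with an interval that included 1. Cdc20, the highest gene in malignant cells, had 10.3 and 10.5 CPM (1.01), and Cdk1 25.4 and 26.6 CPM (1.05). Ttk was the lowest, at 4.85 and 3.56 CPM (0.734, 0.580 to 0.927), on the other side of 1 from malignant cells. Outside the dividing range 1 gene, Plk1, was higher by the rule, at 1.36 and 2.13 CPM from 45 and 68 UMIs (1.56, 1.05 to 2.32), where 0.982% of all genes were higher and 2.51% lower. Whether macrophages and malignant cells differ in any of these ratios cannot be tested with 1 library per group.

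In T and NK cells most of the 40 genes were lower in beta-elemene. Of the 40 genes 33 were measured, 30 of them below 1 against 50.0% of all genes. Their median was -0.32 on the log2 scale. The sum of the 40 genes was 2567 CPM in vehicle and 2042 CPM in beta-elemene, a ratio of 0.796 (0.769 to 0.823). Cells of the dividing range, 49 in vehicle and 44 in beta-elemene, held 4328 of the 6805 and 4032 of the 6854 UMIs. The interval of the sum counts UMIs and does not cover the sampling of so few cells. The ratio of shares, which counts cells, was 0.795 (0.538 to 1.18). Mki67 had 189.7 and 133 CPM (0.704, 0.618 to 0.801), Hmgb2 1006 and 758 CPM (0.754, 0.714 to 0.797) and Top2a 202 and 162 CPM (0.803, 0.712 to 0.907). In the same class neutrophil markers, all 12 with a UMI, summed to 846 CPM in vehicle and 295 CPM in beta-elemene, and B and plasma cell markers, 3 of 8 without a UMI, to 68.3 and 20.9 CPM, and their part in these ratios was not tested. None of the 33 measured genes was lower by the 1.5-fold rule, where 2.65% of all measured genes were. In cells of the dividing range the sum was 0.904 times vehicle and in other T and NK cells 0.877 times, with 49 and 44 dividing cells. Split in this way the genes leaned less to 1 side. In the dividing range 21 of 31 measured genes were below 1 and 10 above, where 48.2% of all genes were below. In the other cells 7 of 13 were below and 6 above, where 50.4% of all genes were below. Of the clusters, that led by Nkg7, Gzmb and Cd8a had 13.4% and 10.1% of cells in the range, that led by Icos and Il2ra 5.60% of 268 and 18 of 300 cells, and that led by Gzmc and Ncr1 5.88% and 2.41%.

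One gene was higher in T and NK cells, where 2.9% of all genes were. Anln had 10.2 and 19.7 CPM from 27 and 66 UMIs (1.93, 1.22 to 3.14), and a single beta-elemene cell held 23 of the 66. The DNA replication genes leaned the other way from the 40, with 25 of 31 measured above 1, 1 called higher and none lower, and a sum of 1109 and 1273 CPM (1.15, 1.09 to 1.20). The called gene was Fen1, the flap endonuclease, at 10.6 and 18.8 CPM (1.78), named after its value was seen. The further G2 and mitosis genes had 18 of 26 measured below 1, while 2 were called higher and none lower. Their sum ratio was 0.932 (0.876 to 0.990).

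Fibroblasts had all 40 genes measured and none called, where 2.28% of all genes were higher and 3.33% lower. Their sum was 1032 and 1106 CPM (1.07, 1.05 to 1.10), with 30 above 1, in a class where 41.9% of all genes lay below 1. Neutrophil markers there, all 12 with a UMI, summed to 161 and 439 CPM and the 12 epithelial markers to 354 and 481 CPM, and their part was not tested. Endothelial cells had 32 measured, of which 28 were above 1, in a class where 40.5% of all genes lay below 1. By the 1.5-fold rule 2 were called higher, where 4.08% of all genes were higher and 2.39% lower. These were Ect2 at 13.8 and 22.6 CPM (1.64, 1.02 to 2.69) and Anln at 22.8 and 35.1 CPM (1.54, 1.06 to 2.25). Single beta-elemene cells held 14 of the 51 Ect2 UMIs and 24 of the 79 Anln UMIs. The sum of the 40 genes was 1486 and 1663 CPM, a ratio of 1.12 (1.07 to 1.17). One beta-elemene cell held 781 of its 3747 UMIs, and 1 vehicle cell 358 of 3126. Without the beta-elemene cell the ratio was 0.909 (0.864 to 0.956), and without both cells 0.998 (0.947 to 1.05), so the direction of the endothelial sum rests on 1 cell. The count of 28 genes above 1 was not taken again without that cell. Erythroid markers in the class, 1 of 6 without a UMI, summed to 9.98 and 756 CPM, the 12 epithelial markers to 104 and 349.6 CPM and the 12 neutrophil markers to 207 and 389 CPM, and their part was not tested.

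In the other myeloid classes few of the 40 genes reached 50 UMIs. Monocytes had 12 measured, none called, where 2.41% and 3.23% of all genes were higher and lower, and a sum of 490.4 and 502 CPM (1.02, 0.960 to 1.09), which was 0.931 (0.872 to 0.993) without the top beta-elemene cell. Neutrophils had 13 measured and 1 lower, where 3.62% of all genes were lower and 1.48% higher, namely Ube2c at 12.6 and 6.63 CPM from 32 and 27 UMIs (0.527, 0.304 to 0.908), with 10 of the 32 in 1 cell. Dendritic cells had 9 measured, all 9 below 1, in a class where 54.5% of all genes lay below 1. By the rule 3 were lower, where 6.69% of all genes were lower and 2.96% higher. The sum of the 40 genes was 1058 and 635 CPM, a ratio of 0.6004 (0.549 to 0.656), the lowest of the 8 classes. It was 0.601 (0.544 to 0.663) without the top cell of each library and 0.725 (0.661 to 0.795) without that of vehicle alone. In vehicle 5 cells held 828 of the 1442 UMIs, and in beta-elemene 5 held 344 of 762. These intervals do not cover the sampling of so few cells. Cenpf had 69 and 13 UMIs there (0.214), Top2a 122 and 31 (0.289) and Mki67 71 and 29 (0.464), and 1 vehicle cell held 37 of the 69 Cenpf UMIs while 5 vehicle cells held 101 of the 122 Top2a UMIs. B and plasma cell markers in the dendritic class, all 8 of them with a UMI, summed to 1924 CPM in vehicle and 695 CPM in beta-elemene. Macrophage markers, all 12 with a UMI, summed to 2728 and 1297 CPM there, against 2722 and 2562 CPM for the 12 dendritic markers, and epithelial markers to 475 and 184 CPM. The part of these markers in the ratios was not tested.

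Across the 8 classes the genes rarely kept 1 side. Of 31 genes measured in at least 5 classes, 3 were on the same side of 1 in every class where they were measured: Hmgb2 below 1 in 8 of 8, from 0.732 to 0.966, and Ckap2 and Ndc80 below 1 in 5 of 5. The interval lay wholly below 1 in 6 classes for Hmgb2 and in 1 class each for Ckap2 and Ndc80. Top2a was below 1 in 6 of 8, with 1.04 in fibroblasts and 1.18 in endothelial cells as the exceptions. Birc5 was above 1 in 6 of 8, with 0.673 in dendritic and 0.780 in T and NK cells as the exceptions. Ccnb1 was above 1 in each of the 4 classes where it was measured, from 1.06 to 1.18, with intervals that all included 1. The classes come from the same 2 libraries and share their free RNA, so they are not replicates of one another.

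**Figure D5:**
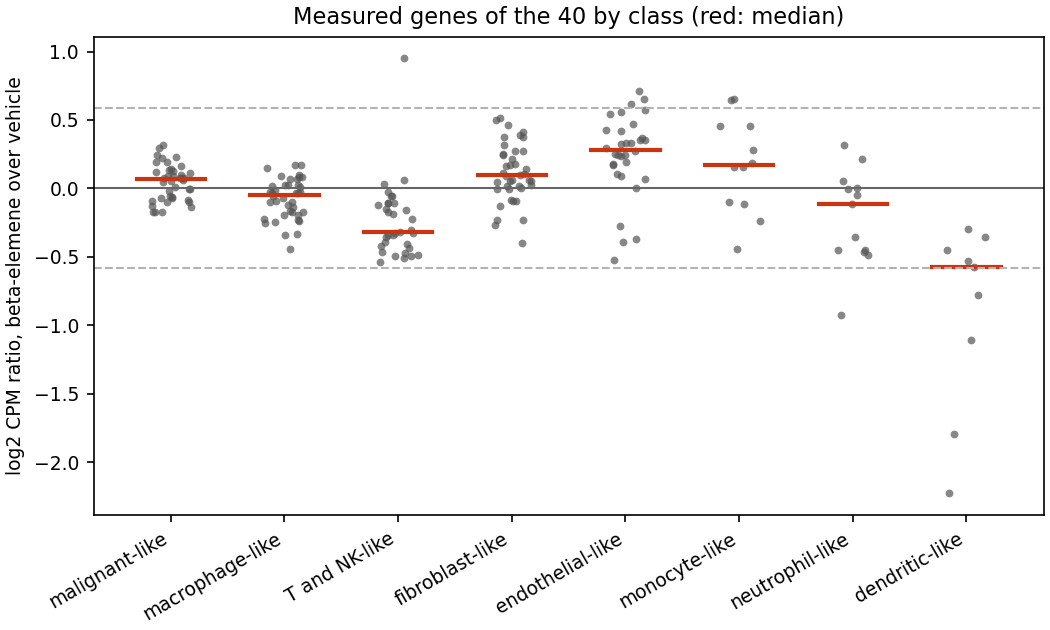
Log2 CPM ratio of beta-elemene over vehicle (y axis) for each gene of the 40 measured in a class (points), by class (x axis), with the median as a red bar and 1.5-fold as dashed lines. The points of malignant-like cells span the narrowest range, those of T and NK-like cells mostly below it with Anln alone above the upper line, and 9 genes remain in dendritic-like cells.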

How the data were processed

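Single-cell libraries of 1 vehicle and 1 beta-elemene sample (10x Chromium 3' chemistry) were processed by the authors with Cell Ranger 7.1.0 per the file headers, and with STAR on mm10 per the submitters' processing notes. The deposited values are raw UMI counts per gene and barcode. Cells with at least 200 genes and at most 20% mitochondrial UMIs were kept, and called doublets were removed (scanpy 1.11.5, Scrublet). Clusters (2000 variable genes, 30 components, 15 neighbours, Leiden resolution 1.0, leidenalg 0.10.2) left out the 40 genes and all cell-cycle lists. They were named from marker lists, and the minimum naming score of 0.4 was set after seeing the data, which left the unnamed clusters out of every class. For shares, cells under 1000 UMIs were left out (401 in vehicle and 440 in beta-elemene, of which 44 and 66 malignant and 130 and 191 neutrophils). Counts were summed per class and library, and CPM ratios have exact conditional binomial intervals. Intervals of share ratios are log intervals (scipy 1.17.1). A gene was called at 1.5-fold with an interval that excluded 1 and at least 50 UMIs in both sums together. The calculations were tested on simulated data. Named genes were all 40 in malignant cells, those past 1.5-fold in other classes, and in other lists those past 1.5-fold or else the 2 with most UMIs. Others are examples. The members and lists were chosen with earlier results of these data known. Alternatives covered filters, doublets, resolution, scaling, thresholds and class naming.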

Additional observations from a re-analysis of the deposited data

How the results depend on the processing

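The ratios of dividing shares kept their interval across 1 under every alternative run: 0.942 to 1.05 over 14 in malignant cells, 0.900 to 1.10 over 14 in macrophages and 0.748 to 0.965 over 12 in T and NK cells. No gene of the 40 passed 1.5-fold in malignant cells under any of 15. The log2 ratio of the 40 genes' sum in malignant cells, -0.016, turned to 0.0079 with the median scaling, to 0.0024 with the mean over cells and to 0.020 without Hmgb2. It was -0.038 with classes set per cell and -0.0046 without the low-depth and mammary clusters, an alternative chosen after seeing the data. In macrophages it was -0.080, against -0.056 with the median scaling, -0.061 with 10 CPM added to each value, -0.059 without Hmgb2, -0.100 at resolution 2.0 and -0.039 with classes set per cell. In T and NK cells it was -0.33, against -0.27 with the mean over cells, -0.28 with 10 CPM added, -0.22 with classes set per cell and -0.28 with doublets kept. Sums of smaller classes were also taken without the cell holding most UMIs of the 40 genes, chosen after seeing the data. In endothelial cells the log2 ratio, 0.16, turned to -0.14 without the beta-elemene cell and to -0.0026 without both, and in neutrophils, -0.073, to 0.042 without the vehicle cell. In dendritic cells the ratio of the sum stayed below 1, at 0.725 without the vehicle cell and 0.497 without the beta-elemene cell. The cause of these shifts, where a left-out cell does not give it, was not tested. Single genes in malignant cells ran from -0.22 to 0.40 on the log2 scale over all alternatives. No paired analysis was possible because each group is 1 library. Depth limits the smaller classes: few of the 40 genes reached 50 UMIs in monocytes, neutrophils and dendritic cells.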
